A study of Rattus norvegicus with 100 samples.

Results

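Molecular chaperones help other proteins reach and keep their folded state. The genes described here encode those of the cytosol and the mitochondria together with J proteins, their helpers. They were chosen by name, so J proteins of the endoplasmic reticulum and of vesicles are included, as is the microsomal Hsp70 relative Hspa13. The counts below cover these too. A gene was taken when it had a probe set annotated to it alone, when its symbol began with Hsp or Dnaj or was Cct2 to Cct8 or Tcp1, and when it had a value on at least 50% of the arrays of a tissue. Hspa5, Hsp90b1 and Hspg2 were left out by that rule. It gave 49 genes on 60 probe sets, of 10411 genes on 12783 single-gene probe sets. Of the 49 genes, 45 qualified in both tissues, Hspa2, Hspb7 and Dnajc21 in the uterus alone, and Hspbap1 in the pituitary alone. Another 10 genes matched by name but had too few values, 7 of them with no value on any array. The member closest to the limit in the uterus was Dnajc4, with values on 38 of 70 arrays, and the nearest gene outside it was Dnajc22, with 24. Hspa8, Hspa1b and Hsp90aa1 were not analysed here, because their probe sets are annotated to several genes.

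The samples came from immature female rats in a uterotrophic assay, a guideline test in which estrogens are recognised by growth of the immature uterus. Ethinylestradiol (EE), a synthetic estrogen, was compared with control at 2, 4, 8, 24, 28, 48 and 72 h in whole uterus, with 5 arrays per group, and at 4, 8, 24, 48 and 72 h in the pituitary gland, with 3 arrays per group. Dose, route, number of doses, vehicle and exact age were not given in the sources used here, and the labels do not say whether each array is a separate animal, so the p-values measure the spread between these arrays only. The 70 uterus and 30 pituitary arrays were Affymetrix RAE230A rat arrays, which give a linear fluorescence intensity for each probe set. Levels are therefore compared within a gene, not between genes. Each uterus array had between 9338 and 10677 values of 15923 probe sets, and each pituitary array between 9318 and 10135. The number of arrays limits the precision.

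The tissue labels matched most of their markers. The smooth muscle genes Myh11 (median intensity 2190) and Acta2 (median 2113) had values on all 70 uterus arrays. Acta2 also had values on all 30 pituitary arrays, at a median of 62.7. The pituitary hormone genes Prl, Gh1 and Cga had values on all 30 pituitary arrays and on 0 of the 70 uterus arrays. Fshb, Tshb and Lhb had values on 69, 51 and 50 uterus arrays, at medians of 23.9, 13.65 and 44.88. Their pituitary medians were 905.1, 3082 and 2689. Pomc went the other way, with a value on 1 of 30 pituitary arrays. Whole organs were measured, so more RNA per cell and more cells of a type cannot be told apart in any result given here.

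Chaperones work in teams. Hsp70 proteins bind unfolded stretches of a client and let go in a cycle driven by ATP; J proteins (the Dnaj genes) deliver clients and start that cycle, and exchange factors such as the Hsp110 proteins reset it. The chaperonins are closed chambers, Hsp60 with its lid Hsp10 in mitochondria and the CCT ring, built from Tcp1 and its relatives, in the cytosol, where actin and tubulin are its classical clients. Small heat shock proteins hold unfolding proteins without ATP, and Hsp90 keeps signalling proteins in a form ready for activation, the estrogen receptor without its ligand among them. Many chaperone genes are switched on in heat shock by heat shock factors, which bind repeats of a short sequence, the heat shock element.

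Promoters were searched for that element after the uterus values of these genes were known. RefSeq promoter windows of the rat build GRCr8, from 250 bases before to 50 bases after each annotated start, were found for 42 of the 49 genes. A heat shock element of 3 units was searched as GAANNTTCNNGAA on both strands. It was present in 267 of 33469 windows of all genes (0.798%) and in those of 5 of the 42 members (11.9%): Cct4, Dnaja1, Hspd1, Hspe1 and Hsph1. In Cct4 and Dnaja1 the match lay after the annotated start. The bases before the start of the other genes follow, each written 5′ to 3′ on the gene's own strand, with capitals marking the 3-unit matches and the 2-unit forms GAANNTTC and TTCNNGAA, which overlap them. The 2-unit forms are common, in 8.59% (GAANNTTC) and 8.77% (TTCNNGAA) of all windows. They were in 23.8% and 26.2% of the 42 member windows, those with a 3-unit match included.
Hspe1 (chr9:64084077-64084326, plus strand): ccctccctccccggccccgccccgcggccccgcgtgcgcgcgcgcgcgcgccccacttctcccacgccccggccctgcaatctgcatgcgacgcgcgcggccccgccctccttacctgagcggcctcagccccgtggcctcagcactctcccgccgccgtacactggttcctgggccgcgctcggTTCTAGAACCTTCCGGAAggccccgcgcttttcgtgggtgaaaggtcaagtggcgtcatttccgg
Hspd1 (chr9:64084038-64084287, minus strand): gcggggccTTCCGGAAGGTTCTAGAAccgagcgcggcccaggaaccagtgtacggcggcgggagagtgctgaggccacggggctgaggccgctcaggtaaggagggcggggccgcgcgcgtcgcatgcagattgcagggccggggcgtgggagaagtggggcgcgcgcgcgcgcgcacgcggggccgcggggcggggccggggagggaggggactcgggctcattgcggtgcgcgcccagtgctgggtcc
Hsph1 (chr12:10427118-10427367, plus strand): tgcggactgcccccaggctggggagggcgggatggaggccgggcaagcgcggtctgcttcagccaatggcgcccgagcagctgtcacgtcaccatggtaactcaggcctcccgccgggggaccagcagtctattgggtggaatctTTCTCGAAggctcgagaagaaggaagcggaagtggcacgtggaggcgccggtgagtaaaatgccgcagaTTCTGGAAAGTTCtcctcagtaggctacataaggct
Hspd1 and Hspe1 are transcribed away from each other, with 289 bases between their starts, and their windows share 211 bases. The same cluster of matches therefore lies 48 to 65 bases before the start of Hspe1 and 225 to 242 bases before the start of Hspd1. In Hsph1 the 3-unit match lies 24 to 36 bases before the start. The palindromic estrogen response element, GGTCANNNTGACC, was in 9 of all windows (0.0269%) and in 0 of the 42 member windows. The E-box CACGTG was in 6.42% of all windows and in those of 4 members (9.52%): Dnajb9, Hspa9, Hspbap1 and Hsph1. No 3-unit heat shock element was found in the windows of Hspa9, Hspa4 and Cct6a, which rose early in the uterus, or of Hspa1a and Hspb1. Matches to the 2-unit forms numbered 2 in Hspa9, 1 in Cct6a and 2 in Hspb1, and Hspa4 and Hspa1a had none. A match describes the letters in this window only, and its bearing on the uterus values was not tested.

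In the uterus, EE raised a large share of these genes at 4 and 8 h. At 4 h 26 of 46 tested members rose and 4 fell, against 58% of all tested genes that passed, 23.6% that rose and 34.5% that fell. At 8 h 28 of 46 rose and 5 fell, against 64.2% of all genes that passed, 28.7% up and 35.5% down. The median difference of the members, as log2 EE minus control, was 0.305 at 4 h and 0.346 at 8 h, while the median of all genes was -0.075 and -0.043. Differences were taken on log2(intensity + 30.4), which understates the change of dim genes, and a gene is said to have risen or fallen where the adjusted p was under 0.05. Members with a change of at least 2-fold on that scale numbered 3 at 4 h and 10 at 8 h, all upward, and 0 at every other time. The share of all genes with a change of that size was not counted, so these numbers describe the members only. The 2 groups of arrays did not overlap for 26 of the 46 members at 4 h, where 41.5% of all genes did not overlap, and for 30 of 46 at 8 h, where the share was 51.5%.

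The other times showed a start and a decline around that peak. At 2 h 5 of 46 members rose and 0 fell (6.39% of all genes passed, 4.01% up and 2.38% down): Hspa9, Hspd1, Dnaja2, Dnajb1 and Dnajb4. Of these, Dnajb4 passed whichever array was left out; the count was 2 without the control array numbered 6 or the EE array numbered 12. At 24 h 20 of 46 rose and 10 fell (59.2% of all genes passed, 24.8% up and 34.4% down), and at 28 h 19 of 48 rose and 4 fell (62.8% of all genes, 28.4% up and 34.4% down). At 48 h 10 of 46 rose and 9 fell (57.2% of all genes, 24.2% up and 33% down), a split that became 6 and 10 with quantile normalization and 10 and 5 with each array centred on its median. At 72 h 8 of 44 rose and 15 fell (60.1% of all genes, 23.4% up and 36.8% down), so the share of members that rose was by then close to that of all genes. The EE effect differed between times for 42 of 42 members tested at all times, against 81.6% of all genes.

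**Figure D1:**
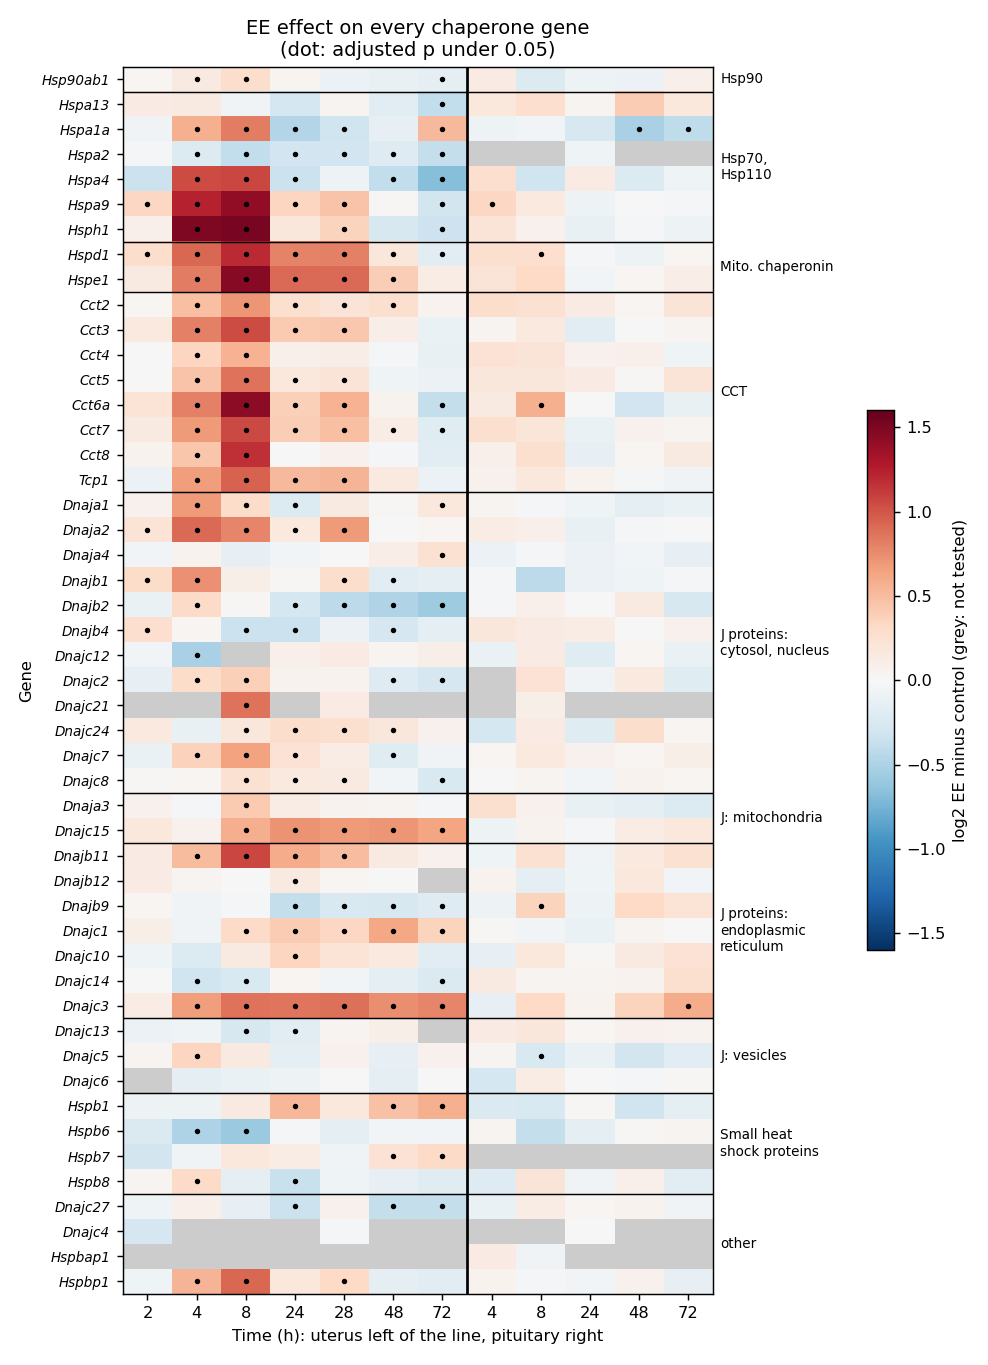
Log2 difference between EE and control for each of the 49 chaperone genes (rows, grouped by family) at each time in uterus (left of the line) and pituitary (right); dots mark adjusted p under 0.05 and grey marks comparisons with too few values to test. The red block at 4 and 8 h in the uterus holds 26 and 28 of the 46 tested members, and the 5 pituitary times hold 8 dots in all.

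The 3 largest differences among members at 4 h were those of Hsph1, Hspa9 and Hspa4, of the Hsp110 and Hsp70 families. Hsph1, an Hsp110 exchange factor for Hsp70, had intensities of 364, 369, 470.1, 555 and 636 on the EE arrays at 4 h and of 120.5, 127, 159, 163 and 166 on the control arrays. Every EE array was above every control array by more than the whole control range. The log2 difference was 1.496 ± 0.12 (SE), a 2.82-fold rise, with an adjusted p of 1.07e-16. At 8 h the rise was 1.52 ± 0.12 (adjusted p 2.06e-17), with EE arrays between 445.5 and 568.7 and controls between 135.7 and 192.5. At 24 h it was 0.185 ± 0.12 and did not pass, and at 28 h 0.355 ± 0.12 (adjusted p 0.00897), with overlapping groups.

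At 72 h the sign had turned. The Hsph1 intensities were then 162, 173, 176, 185 and 193 with EE and 197, 207, 232, 258 and 263 in controls. The groups did not overlap, and the difference was -0.33 ± 0.12 (adjusted p 0.0169), though it did not pass without the control array numbered 73. The effect at 28 h was lower than that at 4 h, with a difference of -1.14 ± 0.17 (adjusted p 3.15e-07).

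Hspa4, the other member of the Hsp110 group measured here, followed the same course with a deeper late fall. At 4 h its intensities were 267, 269, 318, 342 and 377 with EE and 116, 122, 135, 137 and 169 in controls. The groups were far apart, with a difference of 1.05 ± 0.13 (adjusted p 2.75e-10), and the value at 8 h was 1.07 ± 0.13 (adjusted p 7.84e-11). By 24 h Hspa4 was below control, at -0.35 ± 0.13 (adjusted p 0.0164). At 72 h the arrays read 86.6, 102, 105, 121 and 124 with EE and 150.3, 157, 197, 225 and 236 in controls, with no overlap and a difference of -0.68 ± 0.13 (adjusted p 6.59e-06). The effect at 28 h differed from that at 4 h by -1.13 ± 0.18 (adjusted p 1.52e-06).

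Hspa9 encodes mortalin, the Hsp70 of the mitochondrial matrix, which pulls imported proteins in. Its 8 h intensities were 665, 686, 699.5, 704 and 729.7 with EE and 222, 228, 251, 252 and 257 in controls. The EE arrays lay within a narrow band well above the controls, and the difference was 1.42 ± 0.10 (adjusted p 2.7e-20). It had risen by 1.225 ± 0.10 at 4 h and was still up by 0.34 ± 0.10 at 24 h and 0.46 ± 0.10 at 28 h, all passing. At 48 h the value was 0.01 ± 0.10 and did not pass, and at 72 h Hspa9 was lower, at -0.29 ± 0.10 (adjusted p 0.00759), with overlapping arrays. A second probe set of Hspa9 gave 1.119 at 4 h, 1.488 at 8 h and -0.038, not passing, at 72 h, and another, dim one gave 0.207 at 8 h without passing.

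Hspa1a, the stress-inducible cytosolic Hsp70, changed direction more than once. Its 8 h intensities were 208, 304, 323, 377 and 378 with EE and 126, 151, 167, 176 and 207 in controls. The lowest EE array was barely above the highest control, and the difference was 0.82 ± 0.13 (adjusted p 1.24e-07) after 0.57 ± 0.13 at 4 h (adjusted p 0.000134), where the groups overlapped. At 24 h Hspa1a was lower than control, at -0.47 ± 0.13 (adjusted p 0.00149), and at 28 h again, at -0.32 ± 0.13 (adjusted p 0.0277; in 4 of 10 refits without an array it did not pass).

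At 72 h it was higher again. The arrays then read 255, 262, 302, 310.4 and 324 with EE and 185, 185, 187, 190.0 and 216 in controls. The groups did not overlap, and the rise was 0.52 ± 0.13 (adjusted p 0.000413). Near-identical Hsp70 genes may share signal on this probe set, so the value may not be that of Hspa1a alone.

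The remaining genes of the Hsp70 family did not share the rise. Hspa2, an Hsp70 best known from testis, fell at each time from 4 h on, by 0.20 to 0.40 on the log2 scale. At 8 h its arrays read 43.3, 51.1, 51.8, 56.9 and 58.5 with EE and 71.2, 71.8, 75.2, 80.4 and 95.7 in controls, with no overlap and a difference of -0.40 ± 0.08 (adjusted p 1.04e-05). The call at 4 h did not pass without the control array numbered 14, and that at 48 h did not pass in 4 of 10 such refits. Hspa13, a microsomal Hsp70 relative, fell at 72 h, to -0.40 ± 0.13 (adjusted p 0.00571) and did not pass at any earlier time.

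**Figure D2:**
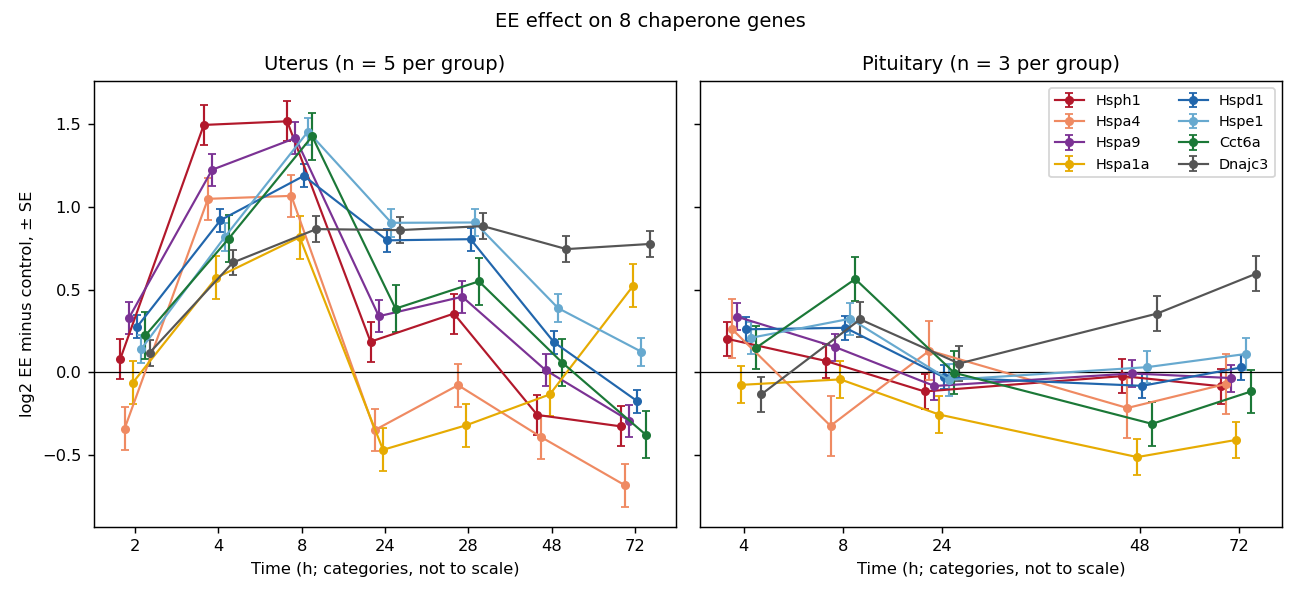
Log2 difference between EE and control ± SE over time for 8 chaperone genes in uterus (left, 5 arrays per group) and pituitary (right, 3 per group); times are drawn as categories. Hsph1, Hspa4 and Hspa9 were highest at 4 and 8 h in the uterus and below control at 72 h, Hspd1 and Hspe1 peaked at 8 h and were still near 0.8 to 0.9 at 24 and 28 h, and Dnajc3 stayed up to 72 h.

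The mitochondrial chaperonin, Hspd1 (Hsp60) and its lid Hspe1 (Hsp10), rose as a pair and stayed up longer. The 8 h intensities of Hspe1 were 1310, 1314, 1330, 1367 and 1429 with EE and 430.1, 458, 489.7, 491 and 497 in controls. The EE arrays lay between 1310 and 1429 and the controls between 430.1 and 497.4, and the difference was 1.46 ± 0.08 (adjusted p 1.36e-23). Hspd1 read 1659, 1679, 1753, 1819 and 1854 with EE and 709, 728, 735, 793 and 796 in controls, a difference of 1.19 ± 0.07 (adjusted p 3.28e-23). At 4 h the pair had risen by 0.82 ± 0.08 (Hspe1) and 0.92 ± 0.07 (Hspd1).

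At 24 and 28 h, when Hspa4 was no longer up, both chaperonin genes still had no overlap between groups. Hspe1 was up by 0.90 ± 0.08 at 24 h and 0.91 ± 0.08 at 28 h, and Hspd1 by 0.80 ± 0.07 and 0.805 ± 0.07. At 48 h Hspe1 was up by 0.39 ± 0.08 (adjusted p 6.91e-05) and Hspd1 by 0.18 ± 0.07 (adjusted p 0.0221). The 48 h value of Hspd1 did not pass without the EE array numbered 71, and was -0.020 with quantile normalization. At 72 h Hspe1 was at 0.12 ± 0.08 without passing and Hspd1 was lower, at -0.175 ± 0.07 (adjusted p 0.0262), a call that did not pass in 5 of 10 refits without an array.

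All 8 measured subunits of the CCT ring rose at 4 h and again at 8 h, with no overlap between groups. Of all genes 23.6% rose at 4 h and 28.7% at 8 h, and 41.5% and 51.5% had no overlap in either direction. Their differences ranged from 0.348 (Cct4) to 0.809 (Cct6a) at 4 h and from 0.558 (Cct4) to 1.427 (Cct6a) at 8 h. Cct6a, which encodes the zeta subunit, had 8 h intensities of 547, 604, 606, 634 and 747 with EE and 192, 198, 223, 224 and 230.4 in controls. No EE array came near the controls, a 2.69-fold rise with an adjusted p of 9.53e-14. Cct7, the eta subunit, had the tightest controls of the 8 subunits at that time, 376, 378, 378, 379 and 380.1, against 769, 823, 834, 838 and 841 with EE, and rose by 1.06 ± 0.055 (adjusted p 9.57e-26).

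The other subunits rose at 8 h by 1.165 ± 0.09 (Cct8), 1.05 ± 0.07 (Cct3), 0.94 ± 0.09 (Tcp1), 0.87 ± 0.06 (Cct5), 0.71 ± 0.07 (Cct2) and 0.56 ± 0.06 (Cct4). The subunits parted later. At 24 h 6 of 8 were still up, by 0.17 to 0.51, and the values of Cct4 (0.08 ± 0.06) and Cct8 (-0.003) did not pass. At 28 h the same 6 subunits were up, by 0.21 to 0.55. Of all genes 24.8% rose at 24 h and 28.4% at 28 h. At 48 h Cct2 was up by 0.26 ± 0.07 (adjusted p 0.00117) and Cct7 by 0.12 ± 0.055 (adjusted p 0.0467; not passing in 6 of 10 refits without an array).

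At 72 h Cct6a was lower, at -0.38 ± 0.14 (adjusted p 0.0184; not passing without the EE array numbered 81 or 83) and so was Cct7, at -0.20 ± 0.055 (adjusted p 0.00152). The Cct7 arrays at 72 h read 337, 369, 386, 409 and 409.5 with EE and 421, 433, 448, 452 and 452 in controls, without overlap. The other 6 subunits lay between -0.165 and 0.060 and did not pass. Processed copies of Hspd1, Cct6a and other genes of these families exist in mammalian genomes, and signal from them cannot be separated here.

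**Figure D3:**
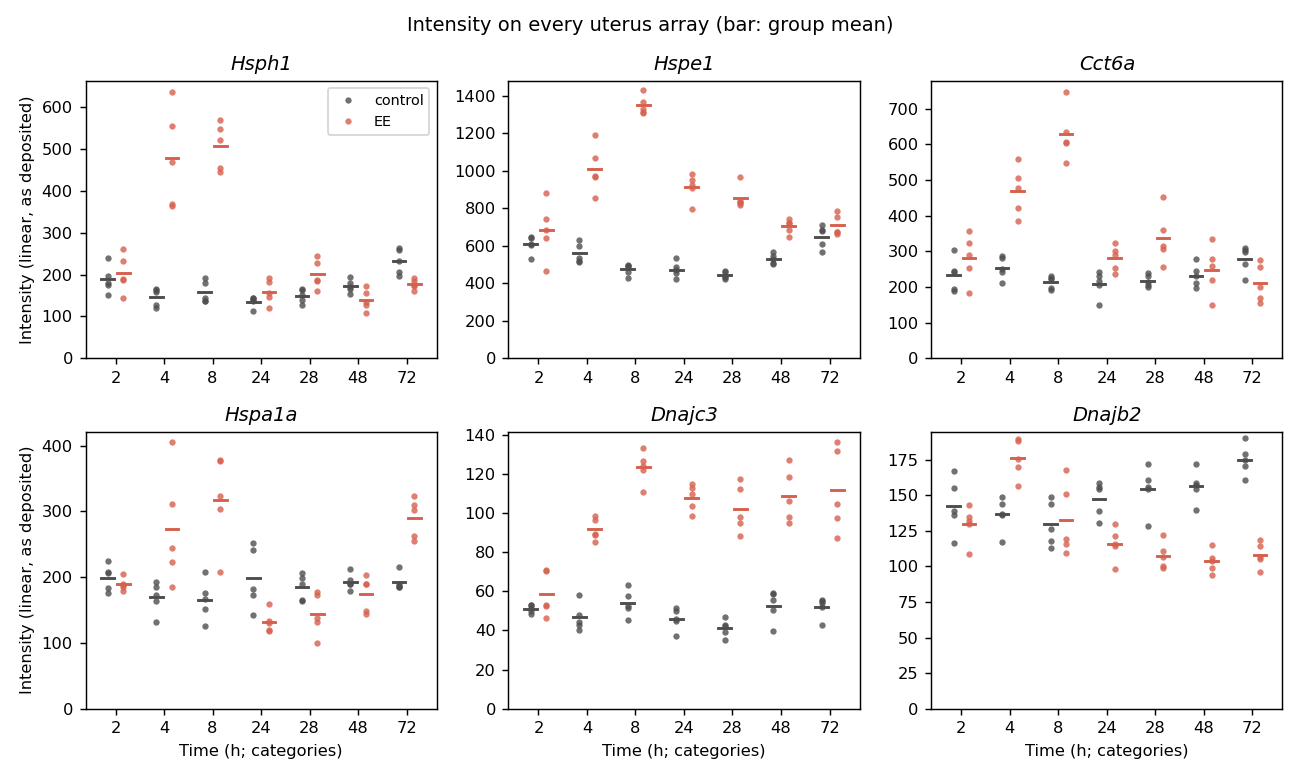
Deposited linear intensity on each uterus array (points) and group mean (bars) by time for control (grey) and EE (red), for 6 genes. At 8 h the EE arrays of Hsph1, Hspe1 and Cct6a lie far above all controls (508 ± 55.2 against 158 ± 26.5 for Hsph1), while Dnajb2 moves from above control at 4 h to below it from 24 h on.

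Hsp90ab1, the constitutive cytosolic Hsp90, moved little. Its 8 h intensities were 2159, 2208, 2241, 2402 and 2531 with EE and 1761, 1883, 1888, 1932 and 1973 in controls, which did not overlap, and the rise was 0.285 ± 0.06 (adjusted p 7.08e-05). Calls at 4 h (0.14 ± 0.06) and 72 h (-0.15 ± 0.06) passed but were lost in 7 and 6 of 10 refits without an array. A second probe set of Hsp90ab1 gave 0.286 at 4 h, 0.402 at 8 h and 0.373 at 24 h, and passed at 72 h in the opposite direction, at 0.311, so its late direction is not settled by these arrays.

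J proteins of the cytosol, which choose clients for Hsp70, split by gene. Dnaja2 had 4 h intensities of 609.7, 612, 617, 639 and 721 with EE and 309, 324, 324, 331 and 355 in controls. The groups were well apart, with a rise of 0.90 ± 0.06 (adjusted p 1.73e-20), and the value at 8 h was 0.78 ± 0.06. It came back to 0.15 ± 0.06 at 24 h, a call that did not pass without the EE array numbered 44, and rose again to 0.68 ± 0.06 at 28 h, where the arrays read 501, 550.4, 558, 567 and 575 with EE and 311, 314, 318, 356 and 365 in controls.

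That second step of Dnaja2 was tested directly. The effect at 28 h exceeded that at 24 h by 0.53 ± 0.08 (adjusted p 5.75e-06). Only 3 of 46 members passed in that comparison, against 8.26% of all genes (5.09% higher and 3.17% lower at 28 h); the other ones were Dnajc27 (0.41 ± 0.11, adjusted p 0.00984) and Dnaja1 (0.36 ± 0.10, adjusted p 0.0136). Between 28 and 4 h, 7 members had a higher and 17 a lower effect at 28 h, of 46 tested (36% of all genes passed, 18.3% higher and 17.7% lower). Besides Hsph1 and Hspa4, the smallest adjusted p there belonged to Dnajb2 (-0.725 ± 0.11, adjusted p 3.59e-07) and Dnajc12 (0.64 ± 0.11, adjusted p 3.58e-06).

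Dnaja1 and Dnajb1, the best known partners of cytosolic Hsp70, rose at 4 h, with smaller differences at 8 h. Dnaja1 had 4 h intensities of 596, 672, 717, 829.7 and 832 with EE and 422, 432, 445, 448 and 459 in controls, a rise of 0.68 ± 0.07 (adjusted p 1.07e-12) without overlap. It was up by 0.295 ± 0.07 at 8 h and down, at -0.21 ± 0.07, at 24 h, both passing. Its other probe set passed in the same direction at 4 h (0.547) and 24 h (-0.695). The probe sets parted at other times: at 28 and 48 h the other one passed at -0.273 and -0.696 where the brighter did not pass, and at 72 h the brighter gave 0.17 ± 0.07 and the other -0.571, both passing. Dnajb1 had 4 h intensities of 251, 312, 357, 381 and 388 with EE and 178, 186, 189, 191 and 206 in controls, a rise of 0.73 ± 0.08 (adjusted p 4.65e-12). At 8 h it was at 0.09 ± 0.08 and did not pass, and its second probe set gave 0.918 at 4 h and 0.063 at 8 h. At 28 h Dnajb1 was up again, at 0.275 ± 0.08 (adjusted p 0.00193), with 0.389 on the second probe set, and this passed whichever array was left out.

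Hspbp1 and Dnajc7 followed the early wave. Hspbp1, an exchange factor that limits Hsp70, read 255, 260.4, 264, 267 and 268 with EE and 116, 123, 127, 129 and 133 in controls at 8 h and rose by 0.91 ± 0.08 (adjusted p 3.55e-16). Dnajc7, a J protein that also contacts Hsp90, rose by 0.37 ± 0.07 at 4 h and 0.64 ± 0.07 at 8 h. Dnajc2, a J protein of the ribosome, rose by 0.30 ± 0.09 and 0.38 ± 0.09 at these times. Dnajc21, a J protein of ribosome assembly, had values on all 5 EE arrays at 8 h, 48.5, 57, 59.5, 62 and 63.3, and on 3 of 5 controls, 14.1, 17.7 and 21.7. Blanks in the controls set which of its comparisons could be tested, so its difference of 0.87 ± 0.08 is given as a description.

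Dnajb2, a J protein that hands clients to the ubiquitin system, reversed. At 4 h its arrays read 156, 170.1, 176, 188 and 189.8 with EE and 117, 136, 137, 144 and 149 in controls, a rise of 0.31 ± 0.08 (adjusted p 0.000554). At 72 h they read 96.3, 105, 107, 115 and 119 and 161, 171, 175, 179 and 189.9. The groups did not overlap at either time, and the late difference was -0.57 ± 0.08 (adjusted p 4.89e-09). Its values in between were 0.02 ± 0.08 at 8 h, not passing, then -0.28 ± 0.08, -0.42 ± 0.08 and -0.48 ± 0.08 at 24, 28 and 48 h, all passing without overlap.

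Dnajb4, a cytosolic J protein of the same class as Dnajb1, rose at 2 h, with 212, 225, 236, 239.6 and 258 on the EE arrays and 175, 183, 192, 194 and 199 on the controls (0.27 ± 0.07, adjusted p 0.00524). It was lower, at -0.34 ± 0.07 at 8 h, -0.34 ± 0.07 at 24 h and -0.27 ± 0.07 at 48 h, without overlap. Dnajc12 fell at 4 h, with values of 26.8, 31.5 and 33.9 on the 3 EE arrays that had one and 47.4, 51.1, 56.7, 57.3 and 73.7 on the controls (-0.51 ± 0.08, adjusted p 2.8e-07). It was not tested at 8 h, and its later values lay between 0.040 and 0.130 without passing. Dnajc27, which joins a small GTPase domain to a J domain, fell, to -0.35 ± 0.08, -0.38 ± 0.08 and -0.38 ± 0.08 at 24, 48 and 72 h and was at 0.06 ± 0.08, not passing, at 28 h.

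J proteins of the endoplasmic reticulum include a rise that lasted to 72 h. Dnajc3, an inhibitor of the kinase PERK and a co-chaperone of the reticulum's Hsp70, had 4 h intensities of 85, 88.5, 89.5, 96.5 and 98.6 with EE and 40.4, 42.9, 44.3, 48.1 and 58.3 in controls, and at 72 h of 87.4, 97.7, 104, 132 and 136 and 42.6, 52, 54, 55.1 and 55.7. The groups were apart at both times. The differences were 0.66 ± 0.08, 0.87 ± 0.08, 0.86 ± 0.08, 0.88 ± 0.08, 0.745 ± 0.08 and 0.78 ± 0.08 at 4, 8, 24, 28, 48 and 72 h, each passing without overlap and whichever array was left out. At 72 h the adjusted p was 3.88e-13.

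Dnajb11, a J protein of the reticulum lumen, peaked at 8 h, with 212, 219, 220.4, 226 and 227 with EE and 76.2, 88.8, 89.8, 91 and 100.4 in controls (1.07 ± 0.08, adjusted p 8.2e-18), and was up by 0.60 ± 0.08 and 0.49 ± 0.08 at 24 and 28 h. Dnajc1, a membrane J protein of the reticulum, rose at every time from 8 h, most at 48 h, where the arrays read 122, 134, 135, 136 and 147 with EE and 58.9, 61.8, 78.8, 96.2 and 96.7 in controls (0.615 ± 0.09, adjusted p 1.52e-08). Dnajb9 went the other way: it was at -0.02 ± 0.07 at 8 h, not passing, and fell, to -0.38 ± 0.07 at 24 h (adjusted p 1.11e-05), -0.245 ± 0.07 at 28 h, -0.26 ± 0.07 at 48 h and -0.20 ± 0.07 at 72 h, the last not passing without the control array numbered 73 or the EE array numbered 84. Dnajc14 fell, to -0.31 ± 0.08 at 4 h and -0.24 ± 0.08 at 8 h, and its second probe set gave -0.344 and -0.261.

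The remaining J proteins moved less. Dnajc24, which takes part in a modification of elongation factor 2, was up at 8, 24, 28 and 48 h, most at 24 h (0.29 ± 0.08, adjusted p 0.00148); the 8 and 48 h calls did not pass in 7 and 5 of 10 refits without an array. Dnajc8, a J protein tied to splicing, was up at 8 h (0.24 ± 0.06), 24 h (0.16 ± 0.06) and 28 h (0.15 ± 0.06) and down at 72 h (-0.25 ± 0.06), with the 24 and 28 h calls lost in 3 and 4 of 10 refits. Dnajc10, a reductase of the reticulum, and Dnajb12, a membrane J protein there, passed at 24 h (0.34 ± 0.12 and 0.145 ± 0.06), calls lost in 2 and 7 of 10 refits without an array. The second probe set of Dnajc10 passed at 24 h (0.262), 28 h (0.291) and 48 h (0.378). Dnajc13, of endosomes, was lower at 8 h (-0.25 ± 0.07) and 24 h (-0.17 ± 0.07), and the 24 h call did not pass in 5 of 10 refits. Dnajc5 was higher at 4 h (0.34 ± 0.07), where its second probe set gave -0.007 without passing. Dnajc4 could be tested in the uterus at 2 and 28 h only, at -0.27 ± 0.11 and -0.03 ± 0.11, and did not pass; Hspbap1 could be tested in the pituitary at 4 and 8 h only, at 0.13 ± 0.12 and -0.05 ± 0.11, and did not pass.

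Of the J proteins of mitochondria, Dnajc15, which serves the import motor, rose late and stayed up. Its 8 h intensities were 155, 174, 177, 192 and 226 with EE and 96.3, 98.8, 111, 127 and 133 in controls, and at 48 h 137, 190.1, 199.6, 215 and 218 and 76.4, 100.1, 103, 121 and 131. The groups were apart at both times, if narrowly at 48 h. The differences from 8 to 72 h were 0.58 ± 0.10, 0.71 ± 0.10, 0.69 ± 0.10, 0.70 ± 0.10 and 0.635 ± 0.10, each passing, after 0.07 ± 0.10 at 4 h. The 28 h effect exceeded the 4 h effect by 0.61 ± 0.14 (adjusted p 0.000391). Dnaja3, a J partner of mortalin, rose at 8 h by 0.42 ± 0.08 (adjusted p 4.51e-06) and passed at no other time.

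Small heat shock proteins did not take part in the early rise, apart from a rise of Hspb8 at 4 h (0.30 ± 0.13) that did not pass in 5 of 10 refits without an array; its second probe set passed at 4 h too, at 0.368. At 24 h Hspb8 was lower, at -0.36 ± 0.125 (adjusted p 0.012), while that probe set gave -0.027 without passing. Hspb6, a small heat shock protein of muscle, read 230.4, 253, 264, 274 and 275 with EE and 359, 388, 414, 428 and 456 in controls at 8 h, a difference of -0.60 ± 0.08 (adjusted p 2.87e-09) without overlap, after -0.49 ± 0.08 at 4 h. From 24 h on it lay between -0.146 and -0.013 and did not pass. Summed intensities of the 7 smooth muscle markers ranged from 8750 to 9463 with EE and from 8451 to 9634 in controls at 8 h, and 1 of the 7 rose and 1 fell. The part of muscle content in the Hspb6 values was not tested.

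Hspb1, the small heat shock protein known as Hsp27, was at 0.15 ± 0.13 at 8 h, not passing, and rose at 24 h, with 569.9, 606, 633, 677 and 806 with EE and 365, 384, 479, 486 and 533 in controls (0.525 ± 0.13, adjusted p 0.000339). It was up by 0.465 ± 0.13 at 48 h and 0.57 ± 0.13 at 72 h, both passing with overlapping arrays. Hspb7, of heart and skeletal muscle, was up by 0.305 ± 0.10 at 72 h (adjusted p 0.00741), with 239, 254, 281, 282 and 300.1 against 171, 206, 225, 235 and 235. At 72 h the summed smooth muscle markers were higher too, 12130 to 15050 with EE against 9063 to 12530 in controls, with 5 of 7 genes up, the 7 epithelial markers summed to 4863 to 6934 against 1594 to 2040, and the 6 macrophage markers to 3387 to 5592 against 943 to 1303. The 7 measured of 9 skeletal muscle markers summed to 2552 to 3330 with EE against 1447 to 1886 in controls, with 2 of 4 tested genes up. Epithelial sums were 3022 to 4508 with EE against 1856 to 2391 in controls at 24 h, and 4227 to 5373 against 1610 to 2207 at 48 h. Macrophage sums at these times were 1059 to 2380 against 994.5 to 1256, and 2428 to 2987 against 869 to 1234. Smooth muscle sums were 9840 to 10560 against 8757 to 10660, and 10320 to 13190 against 8584 to 10310. The part of these markers in the late values was not tested.

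Measures of array quality also differed between EE and control at some times, with no adjusted p under 0.05. The log2 difference between the 3′ and 5′ control probe sets of Actb, a measure of RNA integrity and labelling, was 0.222 ± 0.0929 with EE and 0.503 ± 0.113 in controls at 8 h (SD, n = 5; exact permutation test, two-sided, p = 0.00794, the smallest this design allows, adjusted p = 0.0635). Its mean was lower with EE at every other uterus time too. At 28 h it was 0.195 ± 0.0726 against 0.435 ± 0.0776, at 48 h 0.245 ± 0.132 against 0.606 ± 0.177, and at 72 h 0.314 ± 0.143 against 0.66 ± 0.264. The same measure from Gapdh was 0.337 ± 0.106 with EE and 0.376 ± 0.0729 in controls at 8 h, and 0.336 ± 0.0603 against 0.529 ± 0.106 at 48 h. For Gapdh the values were 0.279 ± 0.116 against 0.502 ± 0.143 at 72 h, and 0.513 ± 0.0852 against 0.468 ± 0.272, higher with EE, at 2 h. The median intensity of the uterus arrays was lower with EE at each time, with 96.8 ± 1.26 against 102 ± 1.91 at 24 h. The share of blank probe sets at 8 h was 38.2% ± 0.974 with EE and 34.5% ± 0.836 in controls. At the same time the 7 epithelial markers summed to 2594 to 2827 with EE and 1704 to 2541 in controls (3 rose and 1 fell), and the 6 macrophage markers to 976.8 to 1638 against 775.8 to 965.7 (1 rose and 1 fell of 5 tested), while the 2 lymphocyte markers were blank on all 10 arrays. The 4 measured markers of neural lobe and glia, of which Vim, an intermediate filament gene that stromal cells also express, gives most of the signal in the uterus, summed to 1133 to 1505 with EE against 1879 to 2331 in controls at 4 h (1 rose and 2 fell of 4 tested). At 8 h they summed to 790.8 to 1092 against 1722 to 1981 (1 rose and 2 fell of 3 tested), without overlap at either time. The part of these in the chaperone values was not tested. With each array centred on its median 28 members rose and 5 fell at 8 h, as without centring, and Hsph1, Hspa9, Hspd1, Hspe1 and the CCT subunits passed at 8 h whichever array was left out.

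In the pituitary the same genes changed little. At 4 h 1 of 44 tested members rose, Hspa9, and 0 fell (1.49% of all genes passed, 1.05% up and 0.439% down). Its arrays read 298, 330.5 and 343 with EE and 228, 258 and 264 in controls, a rise of 0.34 ± 0.08 (adjusted p 0.0318), while its other probe sets gave 0.062 and 0.139 without passing. At 8 h Cct6a, Dnajb9 and Hspd1 rose and Dnajc5 fell, of 46 tested (3.56% of all genes passed, 1.73% up and 1.82% down). Cct6a read 485, 561 and 589 with EE and 339, 353 and 382 in controls (0.56 ± 0.13, adjusted p 0.0162). Hspd1 read 964, 965 and 965 with EE and 763, 811 and 812 in controls (0.27 ± 0.07, adjusted p 0.0377). Dnajb9, a J protein of the reticulum induced by unfolded protein there, was up by 0.36 ± 0.09 and Dnajc5, the cysteine string protein of secretory vesicles, was down, at -0.24 ± 0.07, with -0.143, not passing, on its second probe set.

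These early pituitary calls rest on few arrays. The rise of Hspa9 did not pass in 4 of 6 refits without an array, and those of Cct6a, Dnajb9, Hspd1 and Dnajc5 not in 3 or 4 of 6. The number passing at 8 h ranged from 0, without the control array numbered 28, to 9, without the EE array numbered 33. All 8 CCT subunits had values above 0 at 4 and 8 h, with medians of 0.166 and 0.196 where all genes had medians of -0.010 and -0.002.

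At 24 h 0 of 46 members passed in limma's moderated test (0.0875% of all genes passed, 0.0292% up and 0.0583% down). Before adjustment 3 members had a p under 0.05, and the share of all genes under it was not counted. At 48 h 1 of 44 fell and 0 rose (0.321% of all genes passed, 0.219% up and 0.102% down), and at 72 h 1 fell and 1 rose of 44 (2.72% of all genes, 1.76% up and 0.963% down). The gene that fell at both times was Hspa1a. It read 50.6, 53.9 and 56 with EE and 86.4, 88.1 and 93.6 in controls at 48 h (-0.51 ± 0.11, adjusted p 0.0279), and 51.2, 56.7 and 66.3 against 81.1, 87.6 and 92 at 72 h (-0.41 ± 0.11, adjusted p 0.0416). The groups did not overlap at either time, but the 48 h call did not pass in any of 6 refits without an array and the 72 h call not in 5 of 6.

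Dnajc3 was the member that rose at 72 h. Its arrays read 213, 237 and 243 with EE and 134, 144 and 149 in controls, with every EE array above every control by more than the control range. The rise was 0.60 ± 0.105 (adjusted p 0.00155) and passed whichever array was left out. Its values were -0.13 ± 0.105 at 4 h and 0.355 ± 0.105 at 48 h, neither passing, and it was the 1 of 43 members whose pituitary effect differed between times (adjusted p 0.0441; 1.1% of all genes). The count of such members ranged from 0 to 3 over 30 refits without an array and differed from 1 in 24 of them, reaching 3 without the EE array numbered 33.

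The difference between the tissues was tested directly at the shared times. At 4 h the EE effect differed for 25 of 43 members, higher in the uterus for 22 and lower for 3 (33.8% of all genes passed, 15.2% higher and 18.6% lower). At 8 h it was higher for 27 and lower for 4 of 44 (48% of all genes, 22.5% higher and 25.5% lower), at 24 h for 14 and 3 of 45 (40.1%, as 17.8% and 22.3%), at 48 h for 6 and 4 of 44 (36.4%, as 15% and 21.4%), and at 72 h for 5 and 8 of 42 (38.6%, as 14.5% and 24.1%). The 48 h split was 4 higher and 8 lower with quantile normalization, and the 72 h split 7 and 6 with centred arrays. With the numbers shared between the tissues as a replicate block, 18, 23, 13, 5 and 9 members passed at 4, 8, 24, 48 and 72 h. At 4 h the smallest adjusted p belonged to Dnaja2 (uterus minus pituitary effect 0.78 ± 0.09, adjusted p 1.07e-10), Hsph1 (1.29 ± 0.18), Cct3 (0.75 ± 0.11) and Hspd1 (0.66 ± 0.11).

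At 8 h all 8 CCT subunits passed, higher in the uterus, where 22.5% of all genes were higher. The leading differences at 8 h were Cct7 (0.87 ± 0.095, adjusted p 1.42e-12), Hspa9 (1.265 ± 0.145), Hspd1 (0.92 ± 0.11) and Hspe1 (1.13 ± 0.13). At 24 h they were Hspd1 (0.83 ± 0.11, adjusted p 1.57e-09), Hspe1 (0.95 ± 0.13), Dnajc3 (0.81 ± 0.13) and Cct3 (0.60 ± 0.11). At 48 h they were Dnajb9 (-0.58 ± 0.12, adjusted p 5.16e-05), Dnajb2 (-0.62 ± 0.14), Dnajc1 (0.57 ± 0.14) and Dnajc15 (0.59 ± 0.15). At 72 h the effect on Hspa1a was higher in the uterus by 0.93 ± 0.20 (adjusted p 8.25e-05), where it rose, than in the pituitary, where it fell, followed by Dnajc14 (-0.49 ± 0.12), Dnajb9 (-0.42 ± 0.12) and Dnaja4 (0.37 ± 0.10). The 2 probe sets of Dnaja4 passed in opposite directions in the uterus at 72 h (0.24 ± 0.06 on the one used and -0.186 on the other).

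Control levels were compared between the tissues. Over the shared times 35 of 43 members passed between control uterus and control pituitary, 12 higher and 23 lower in the uterus (86.5% of all genes passed, 38.9% higher and 47.6% lower), so the members did not pass more often than genes at large. Over all arrays the 3′ minus 5′ difference of Actb was 0.0658 to 1.07 in the uterus and 1.21 to 1.8 in the pituitary. That of Gapdh was 0.1172 to 0.9206 and -0.37 to 0.02045. Neither overlapped, so RNA quality and tissue cannot be told apart in these levels. Dnajc6, auxilin, which strips clathrin from vesicles in neurons and endocrine cells, was lower in the uterus, with a difference of -3.215 ± 0.05, with control means at the shared times of 26.6 to 31.9 in the uterus and 484 to 556 in the pituitary. Dnajb9 was lower, at -2.245 ± 0.04 and Dnajc3 at -1.25 ± 0.04, both J proteins of the reticulum.

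The small heat shock proteins were on the other side. Hspb1 was higher in the uterus by 1.77 ± 0.06, with control means of 409 to 540 in the uterus and 99.9 to 136 in the pituitary. Hspb6 was higher by 1.66 ± 0.04 (388 to 415 against 94.5 to 119) and Hspb8 by 1.23 ± 0.06, while Hspb7 had no value on any pituitary array. Hspd1 (-0.04 ± 0.03) and Hspe1 (0.02 ± 0.04) did not pass. Adjusted p for Dnajb9 was 1.1e-68 and for Hspb6 1.71e-53.

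**Figure D4:**
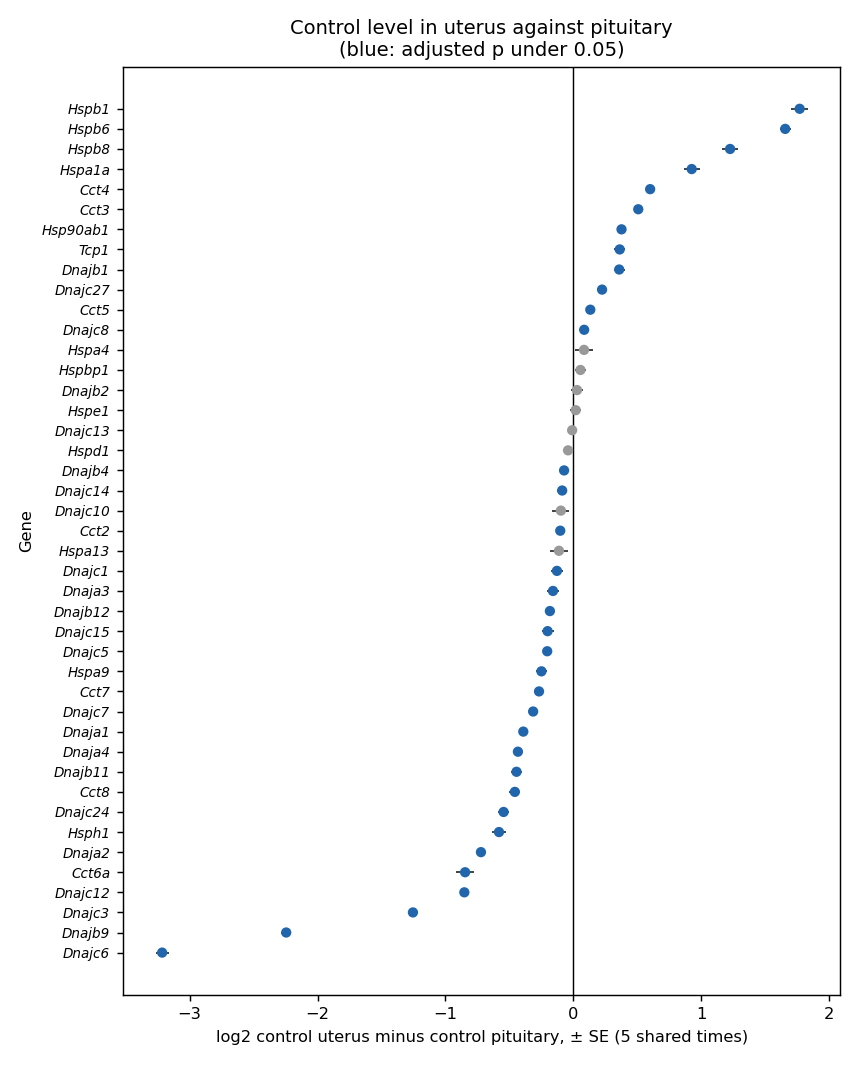
Log2 difference in control level between uterus and pituitary ± SE, over the 5 shared times, for the 43 chaperone genes tested (points; blue marks adjusted p under 0.05). Hspb1 and Hspb6 lie at the top, at 1.77 and 1.66, and Dnajc6 and Dnajb9 at the bottom, at -3.21 and -2.25 (uterus lower), while 8 grey genes did not pass.

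Control levels in the uterus were not constant over the 72 h. They differed between times for 13 of 46 members, against 32.6% of all genes, with the smallest adjusted p for Hspe1 (2.88e-06), Hspd1 (9.91e-06), Cct7 (8.11e-05) and Hsph1 (0.000267). Control Hspe1 was 607 ± 45.9 at 2 h, 443 ± 18.4 at 28 h and 649 ± 59.8 at 72 h (SD, n = 5). Control Hspd1 was 818 ± 109, 683 ± 39.4 and 938 ± 75 at these times. Control Hsph1 was 189 ± 33.6 at 2 h, 135 ± 13 at 24 h and 231 ± 29.3 at 72 h, and Cct7 365 ± 25.2, 338 ± 17.7 and 441 ± 13.7 at 2, 28 and 72 h. For each of these genes the 72 h controls had the highest mean, and the differences below 0 at 72 h are taken against them. In the pituitary 0 of 43 members differed between control times in the moderated F test, where 1.61% of all genes passed after adjustment. An unadjusted p under 0.05 was found for 11 members, and the share of all genes under it was not counted.

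Other genes of the folding machinery were counted from lists of the known partners. Of the Hsp90 and Hsp70 co-chaperones, 12 of 17 tested rose at 4 h and 14 of 18 at 8 h, where 23.6% and 28.7% of all genes rose, and 0 fell at either time. Stip1, which links Hsp70 to Hsp90, rose by 1.35 ± 0.09 at 8 h (adjusted p 4.12e-20), Fkbp4, an immunophilin of steroid receptor complexes, by 1.43 ± 0.11, and Ptges3, the Hsp90 co-chaperone p23, by 0.65 ± 0.06. At 72 h 2 of 18 were up and 5 down (23.4% and 36.8% of all genes). In the pituitary Fkbp5, another receptor immunophilin, was the 1 that passed, at 72 h (-0.43 ± 0.11, adjusted p 0.0301).

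Partners of the chaperonins were mixed. Of 9 prefoldin and CCT partner genes, 4 rose and 2 fell at 4 h (23.6% and 34.5% of all genes) and again at 8 h (28.7% and 35.5%), among them the prefoldin subunits Pfdn4 (1.04 ± 0.08 at 8 h) and Pfdn2 (0.80 ± 0.08) and the CCT regulator Pdcl3 (0.73 ± 0.07 at 4 h). Of the mitochondrial partners and proteases, 5 of 11 rose and 1 fell at 4 h, and 8 of 11 rose and 1 fell at 8 h, against the same shares of all genes, led by Phb2, a prohibitin (0.91 ± 0.05), and Grpel1, the exchange factor of mortalin (0.67 ± 0.07). Trap1, the mitochondrial Hsp90, rose most at 24 h (0.64 ± 0.07).

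Of the heat shock factors and other heat shock genes, 2 of 8 rose and 3 fell at 4 h, near the 23.6% and 34.5% of all genes. At 8 h 2 rose and 1 fell, where 28.7% of all genes rose and 35.5% fell. Hsf1, the main heat shock factor, rose by 0.45 ± 0.06 at 4 h and 0.48 ± 0.06 at 8 h and fell, to -0.38 ± 0.06 and -0.425 ± 0.06 at 48 and 72 h. Ppp1r15a, a stress phosphatase subunit, rose at 2 h (0.84 ± 0.09), and Serpinh1, the collagen chaperone Hsp47, most at 28 h (0.585 ± 0.07). Chaperones of the endoplasmic reticulum were also counted: 11 of 11 tested rose at 8 h, 10 of 12 at 24 and 28 h and 7 of 12 at 72 h, where 28.7%, 24.8%, 28.4% and 23.4% of all genes rose at 8, 24, 28 and 72 h. The smallest adjusted p belonged to Creld2 (1.935 ± 0.13 at 8 h, adjusted p 8.3e-21), Manf (2.83-fold, adjusted p 1.41e-20) and Hspa5, the reticulum's Hsp70 (1.59 ± 0.125). In the pituitary Pdia4 rose at 72 h by 0.73 ± 0.11 (adjusted p 0.00032), the time at which Dnajc3 rose there.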

How the data were processed

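The table the authors deposited holds an intensity on a linear scale for every probe set of 100 Affymetrix RAE230A arrays; 37.2% of its cells are blank. How probe sets were summarised and scaled, and why cells are blank, was not given in the sources used here. Per the labels' protocols, total RNA was purified with RNeasy Mini columns and labelled with biotin. Gene names came from the platform annotation: 12783 probe sets had 1 gene, 312 several, 2771 none and 57 were controls.

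For each gene the probe set with the highest mean was used, blanks counting as 0 in that choice alone. Values were taken as log2(intensity + 30.4), the offset being the 10th percentile of all values. Group means were fitted per tissue over all its groups, and over all 100 arrays for comparisons between tissues, blanks left out, with variances moderated by limma 3.58.1 in R 4.3.3, and tests were two-sided. A gene was tested where each group compared had at least 3 values in the uterus or 2 in the pituitary. Benjamini-Hochberg adjustment ran over all genes tested, with a threshold of 0.05. The procedure was checked on simulated data.

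The members and the gene lists were chosen with earlier results of these data known. Named were the main Hsp, CCT and J genes throughout, the 5 largest rises and falls without overlap at each time, the 4 smallest adjusted p in each other comparison, up to 3 genes of each list, and other members within their family. Alternatives were an offset of 1, quantile normalization, median-centred arrays, fits of only the groups compared, genes without blanks, the replicate block and each array left out. Refits without an array name it by its number in the labels.

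Numbers shared by a uterus and a pituitary array gave 27 pairs, and the correlation of their deviations from the group means ran from -0.0646 to 0.162. In 19 of the 27 pairs the pituitary array of the same number was the closest of the 3 in its group. The labels do not say that a shared number marks a single animal, and the main fits did not pair the arrays. If the numbers do mark animals, the tests between the tissues ignore that pairing. Counts with the numbers as a block are given below.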

Additional observations from a re-analysis of the deposited data

Results flagged for a closer look

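In 6 of 101 gene and group pairs of named genes in the uterus, 1 array stood apart from the rest of its group; chance gives about 1 in 20. With EE these were the highest Dnaja2 array at 4 h (721.3), the highest Dnajb9 array at 24 h (88.07), the lowest Dnajc27 array at 48 h (61.99) and the highest Hspe1 array at 28 h (965.4). In 72 h controls they were the lowest Dnajc3 array (42.6) and the highest Hspa1a array (216.2).

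Tested differences between effects were found for 3 members between 28 and 24 h, for 24 between 28 and 4 h and for 42 between any times in the uterus, and for 1 in the pituitary. Of all genes 8.26%, 36%, 81.6% and 1.1% passed in these comparisons. Between the tissues such differences were found for 25 members at 4 h, 31 at 8 h, 17 at 24 h, 10 at 48 h and 13 at 72 h. Of all genes 33.8%, 48%, 40.1%, 36.4% and 38.6% passed at these times. The numbers of members tested are given with the results above.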

How the results depend on the processing

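Of 146 counts of passing members under other settings, 139 lay within 1.5 times the reported count. Fitting only the groups compared gave 2 members in the uterus at 2 h, 0 in the pituitary at 4 h and 0 at 8 h. An offset of 1 gave 2 in the pituitary at 8 h and 0 between any pituitary times, and quantile normalization gave 1 between pituitary control times. Hspd1 in the uterus at 48 h was -0.020 with quantile normalization against 0.182. The causes were not tested.

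With each array left out in turn, the uterus counts ran from 2 to 7 at 2 h, 27 to 29 at 4 h, 31 to 33 at 8 h, 26 to 30 at 24 h, 22 to 24 at 28 h, 15 to 19 at 48 h and 19 to 24 at 72 h. Pituitary counts ran from 0 to 2 at 4 h, 0 to 9 at 8 h, 0 to 0 at 24 and 48 h and 1 to 2 at 72 h. Counts of differing effects ran from 3 to 3 (28 against 24 h), 19 to 22 (28 against 4 h), 40 to 42 (any uterus times) and 0 to 3 (any pituitary times). Between tissues they ran from 22 to 25, 27 to 31, 14 to 17, 8 to 11 and 9 to 15 at 4, 8, 24, 48 and 72 h, and 33 to 35 for control levels. Control times gave 12 to 16 in the uterus and 0 to 1 in the pituitary.

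The numbers shared between tissues were tried as a replicate block, although the correlation was over 0.1 in 8 of 27 pairs and not in the others; 19 uterus arrays were closest to the pituitary array of their own number. With the block the tissue counts were 18, 23, 13, 5 and 9 at 4, 8, 24, 48 and 72 h, and 30 for control levels. Within a tissue no number is shared between EE and control. Dim genes near the offset have understated changes.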
